A study of Danio rerio with 6 samples.

Results

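Keratins are the intermediate filament proteins of epithelia. A filament is built from pairs of one acidic type I and one basic type II keratin, so an epithelium needs genes of both types. In the zebrafish gastrula the enveloping layer, the flat epithelium that covers the blastoderm and later forms the periderm, is the tissue best known for keratin expression, and keratin genes are used as its markers. The keratin genes were chosen by name: every gene whose zebrafish symbol is krt followed by a digit, or starts with cyt1. The rule found 22 of the 32266 genes listed in each library. It leaves out krtcap and krtt1 genes. It also leaves out si:rp71-1n18.1, whose name RefSeq gives as an older name of krt96. That gene had 4.62 ± 2.32 TPM in WT and 3.80 ± 0.168 TPM in MZsmad4a embryos (SD, n = 3 each).

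The data are 6 RNA-seq libraries of zebrafish embryos of the Tubingen (TU) strain, each from a pool of 25 whole embryos at 50% epiboly. Of these, 3 were from WT embryos and 3 from MZsmad4a embryos. The MZsmad4a embryos lack functional smad4a in both the maternal supply and their own genome. Their mothers and fathers were homozygous for a frameshift deletion in smad4a made by CRISPR/Cas9. Smad4 is the shared partner of the Smad proteins that carry BMP and Nodal signals. The WT embryos had other parents, so in these libraries genotype and parental background cannot be told apart. In other assays the paper used offspring of heterozygous mothers and homozygous fathers as controls for background. The labels do not say which WT and mutant pools, if any, share a day or batch. The pools hold every tissue of the embryo, so the cells that made the keratin transcripts were not separated.

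Total expected counts ranged from 9807865 (WT replicate 1) to 20833491 (WT replicate 2), and 3 counts corresponded to between 0.144 and 0.306 CPM (counts scaled to the library size), for counting error only. The genotype labels were checked on smad4a, which had 54.7, 62.3 and 60.8 CPM in WT and 13.1, 15.3 and 14.6 CPM in MZsmad4a embryos. All libraries lay on the side of their genotype. Levels are compared between genes in TPM, which is corrected for transcript length, and between genotypes in CPM scaled by edgeR's TMM method. On the TMM scale the median log2 fold change of the 15720 genes tested was -0.01. It was -0.11 when libraries were scaled by size only and -0.09 on the log2(TPM + 1) scale, so a gene that kept pace with the other genes reads slightly lower in MZsmad4a embryos in TPM than in CPM.

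A few genes supplied most keratin transcripts at 50% epiboly. The 22 genes together made up 1.01% ± 0.106 of all TPM in WT and 1.01% ± 0.0949 in MZsmad4a embryos (SD, n = 3 each). krt8, krt18a.1, krt4, krt5 and krt97 held 86.6% ± 1.45 of the keratin TPM in WT and 85.9% ± 2.51 in MZsmad4a embryos. By mean TPM over the 6 libraries, krt8 ranked 31, krt18a.1 33 and krt4 47 among all genes listed. These places put the leading keratins among the most abundant messages of the whole embryo.

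The type II genes were few and strong. krt8 (ENSDARG00000058358), whose product pairs with keratin 18 in simple epithelia of vertebrates, had 2615, 2417 and 2191 TPM in WT and 2448, 2542 and 2205 TPM in MZsmad4a embryos. krt4 (ENSDARG00000017624), a type II keratin widely used as a marker of the enveloping layer and periderm, had 2055, 1821 and 1722 TPM in WT and 2078, 1984 and 1770 TPM in MZsmad4a embryos. krt5 (ENSDARG00000058371), a type II keratin also known from later epidermis, had 1201, 992 and 1006 TPM in WT and 1206, 1083 and 1002 TPM in MZsmad4a embryos. For each of the 3 genes the ranges of the genotypes overlapped.

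The type I side was led by krt18a.1 (ENSDARG00000018404), a keratin 18 gene, with 2516, 2310 and 2119 TPM in WT and 2374, 2281 and 2163 TPM in MZsmad4a embryos. krt97 (ENSDARG00000000212), numbered in the zebrafish type I series, had 1191, 1055 and 996 TPM in WT and 1055, 1046 and 855 TPM in MZsmad4a embryos. krt92 (ENSDARG00000036834), a further gene of that series, had 687, 538 and 548 TPM in WT and 708, 463 and 454 TPM in MZsmad4a embryos. The genotypes overlapped for all 3, and MZsmad4a replicate 3 was the lowest library for krt97 and krt92. krt99 (ENSDARG00000019365) followed with 199.6, 125.9 and 138.6 TPM in WT and 211.7, 160.3 and 139.4 TPM in MZsmad4a embryos. krt17 (ENSDARG00000094041), a type I keratin, was the most variable of the abundant genes, with 137.7, 61.0 and 73.1 TPM in WT and 149.1, 109.1 and 76.1 TPM in MZsmad4a embryos. In both genotypes replicate 1 was the highest library for krt99 and krt17, and the ranges overlapped.

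**Figure D1:**
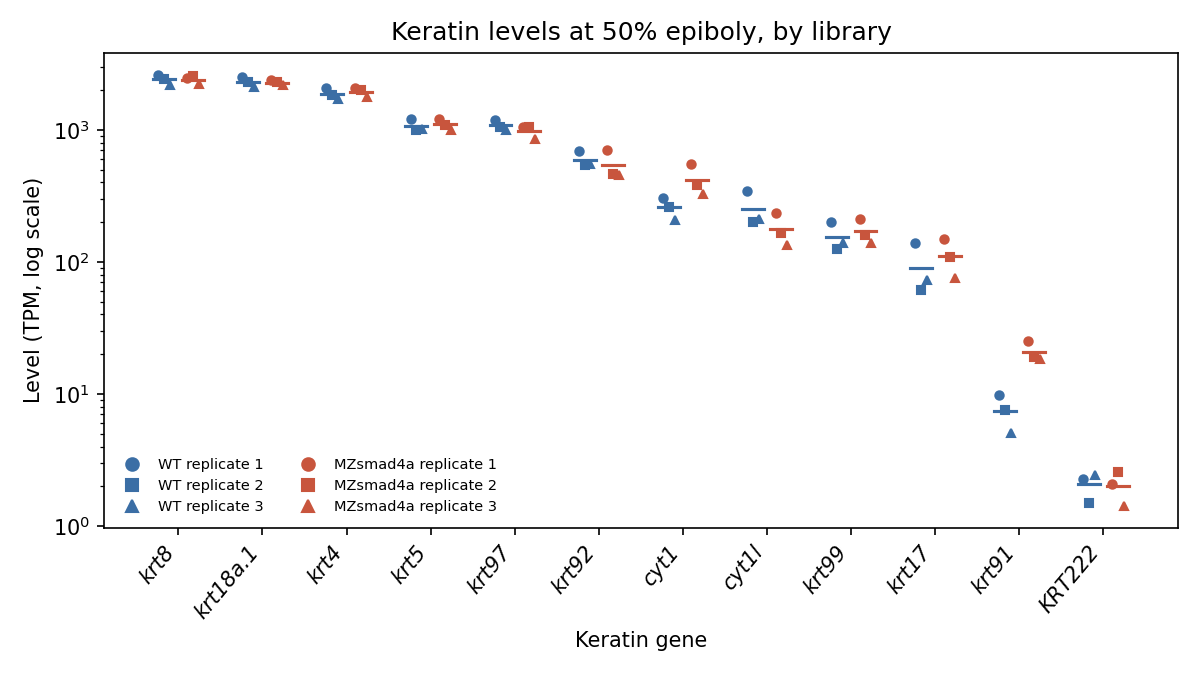
Level of the 12 tested keratin genes in TPM (log axis) for each library. Points are libraries (blue WT, red MZsmad4a, symbol by replicate number) and bars are means of 3. The first 5 genes lie between 855 and 2615 TPM with overlapping genotypes, while cyt1 and krt91 have every MZsmad4a library above every WT library.

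The order of the leading genes was stable. krt8 exceeded krt18a.1 in 6 of 6 libraries, by a ratio of 1.02 to 1.11, krt18a.1 exceeded krt4 in 6 of 6 (ratio 1.14 to 1.27), and krt4 exceeded krt5 in 6 of 6 (ratio 1.71 to 1.84). krt5 and krt97 did not differ beyond their spread: krt5 was higher in 5 of 6 libraries with a ratio of 0.94 to 1.17. krt97 was above krt92, and krt92 above cyt1, in every library. The ratio of krt18a.1 to krt8, the classical pair, was 0.962 ± 0.00589 in WT and 0.949 ± 0.0452 in MZsmad4a embryos (SD, n = 3 each). The summed TPM of the keratins other than krt4, krt5 and krt8, nearly all of it from type I genes, was 0.889 ± 0.0265 times that of these 3 type II genes in WT and 0.863 ± 0.0543 times in MZsmad4a embryos, and the libraries overlapped.

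**Figure D2:**
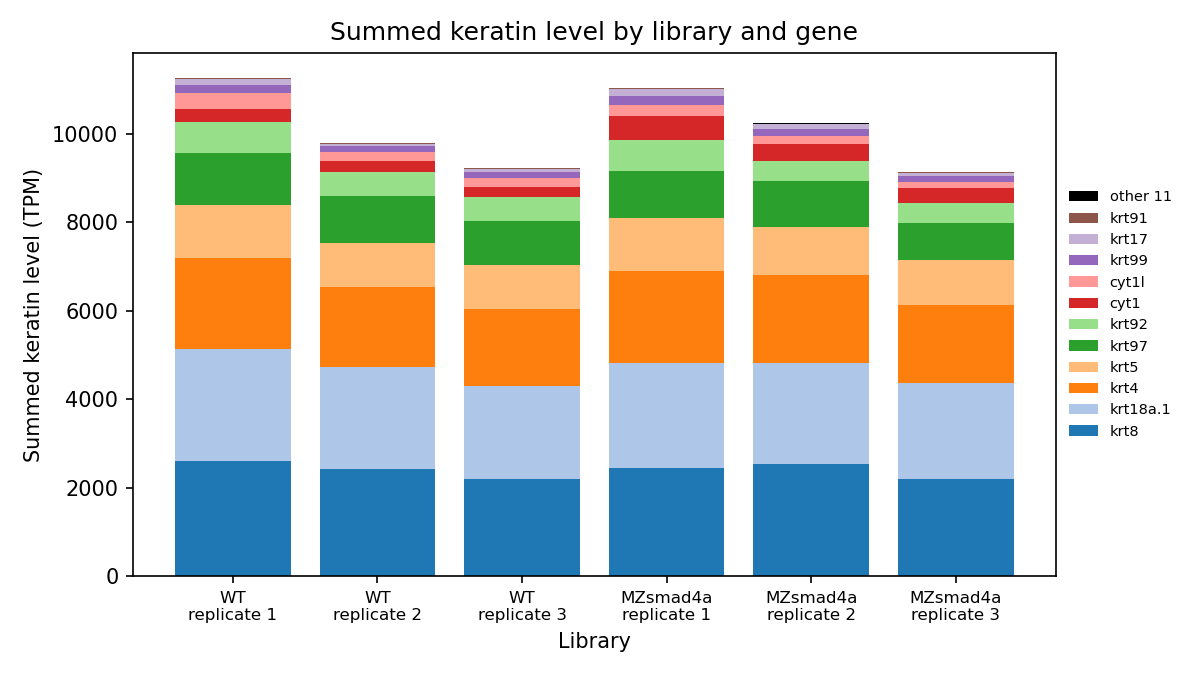
Summed keratin level in TPM for each library, stacked by gene from krt8 at the bottom. WT libraries sum to 11268, 9792 and 9223 TPM and MZsmad4a libraries to 11036, 10239 and 9146 TPM, and the 11 lowest genes add between 2.14 and 4.14 TPM.

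Summed over the family, the libraries of both genotypes spanned the same range. The WT libraries had 11268, 9792 and 9223 TPM and the MZsmad4a libraries 11036, 10239 and 9146 TPM, a ratio of means of 1.005. In TMM-scaled CPM the sums were 9871 ± 692 in WT and 10784 ± 933 in MZsmad4a embryos (SD, n = 3 each), a ratio of 1.09 with overlapping libraries. In whole-embryo pools, fewer cells of a type and less RNA per cell cannot be told apart. Replicate 1 was the highest library of both genotypes for 10 of the 11 genes with a mean of at least 10 TPM, krt8 being the exception. Of all tested genes 16.9% had their highest TPM in replicate 1 of both genotypes. The spread within a genotype was small for the leading genes, with a highest to lowest ratio of 1.10 to 1.23 for the first 5, and reached 2.26 for krt17 in WT.

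The other 11 genes of the family were nearly silent. KRT222 (ENSDARG00000071518), a keratin-like gene, had at most 2.44 TPM in WT and 2.57 TPM in MZsmad4a embryos. The remaining 10 genes, krt1-c5, krt18b, krt93, krt1-19d, krt94, krt1-19e, krt15, krt18a.2, krt95 and krt98, never exceeded 1.12 TPM, the value of krt1-c5 in WT replicate 1. None of these 10 passed the filter on low counts, and krt98 had no count in any library, which allows at most 0.144 to 0.306 CPM per library. krt1-c5 had 9, 13 and 0 counts in WT and 3, 2 and 2 counts in MZsmad4a embryos, too few to compare. Close relatives thus differed widely in level: krt18a.1 had 193074 expected counts over the 6 libraries and its duplicate krt18a.2, the next coding gene on the chromosome, had 4 counts over all 6 libraries, and krt18b had 14.

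The comparison asked whether keratin transcripts differed between WT and MZsmad4a embryos at a stage when ventral fates are being set by BMP signals. Of the 22 keratin genes, 12 were tested and 0 passed an adjusted p of 0.01 (quasi-likelihood F test of edgeR, Benjamini-Hochberg over 15720 genes), where 0.712% of all genes tested did (0.49% lower and 0.223% higher). At an unadjusted p under 0.05 there were 2 of the 12, krt91 and cyt1, against 17.5% of all genes tested. DESeq2's Wald test, the kind of test that the paper used, called the same 2 genes higher at an adjusted p under 0.01. By that test 3.71% of genes were called (1.94% lower and 1.78% higher). limma on log2(TPM + 1) called 0 keratins, where it called 90 lower and 25 higher of the 15720 genes. edgeR without a filter on low counts called krt91 higher, where 0.464% of genes were called higher. The log2 fold change was above 0 for 9 of the 12 genes, with a median of 0.14, against 49% and a median of -0.01 for all genes tested. Scaling by library size only, and limma on TPM, turn the sign of krt8 and krt18a.1, whose values are near 0. KRT222 turns with limma on log2(TPM + 1) as well, from 0.13 to -0.027. The number of keratins above 0 thus depends on the scaling.

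krt91 (ENSDARG00000036830), a type I gene at the low end of the expressed keratins, showed the largest difference of the 12. It had 9.89, 7.53 and 5.07 TPM in WT and 25.1, 18.9 and 18.3 TPM in MZsmad4a embryos. Every mutant library was above every WT library. In CPM the means were 5.79 ± 1.71 and 17.4 ± 3.26 (SD, n = 3 each), on 73.3 to 125.0 expected counts per WT library and 282 to 368 per MZsmad4a library. The log2 fold change was 1.61 (standard error 0.26, 95% interval 1.02 to 2.20, adjusted p = 0.0180, edgeR), a level 3.05-fold that of WT that missed the 0.01 threshold and passed 0.05, as 2.93% of all genes did. DESeq2 gave 1.62 with an adjusted p of 4.1e-07. With any 1 library omitted, edgeR's log2 fold change ran from 1.39 to 1.81 and its adjusted p from 0.0286 to 0.0740.

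cyt1 (ENSDARG00000092947), a type I cytokeratin known from the enveloping layer, had 306.9, 261.8 and 208.7 TPM in WT and 546, 383.7 and 326.2 TPM in MZsmad4a embryos. It is the only other tested keratin whose genotypes did not overlap, which is 2 of 12 against 23.6% of all genes tested. The means were 201.1 ± 33.3 CPM and 350.4 ± 97.6 CPM, and MZsmad4a replicate 1 stood highest. The log2 fold change was 0.80 (standard error 0.20, 95% interval 0.34 to 1.26, adjusted p = 0.0836, edgeR), which did not pass. DESeq2 gave 0.81 with an adjusted p of 0.00626. With any 1 library omitted, edgeR gave 0.56 to 0.95, with an adjusted p of 0.0760 to 0.191.

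cyt1l (ENSDARG00000036832), the neighbouring copy of cyt1, differed in the other direction without passing the test. It had 343.6, 199.6 and 211.4 TPM in WT and 232.3, 164.8 and 134.3 TPM in MZsmad4a embryos, with overlapping genotypes. Its log2 fold change was -0.37 (standard error 0.24, 95% interval -0.92 to 0.18, adjusted p = 0.494, edgeR).

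**Figure D3:**
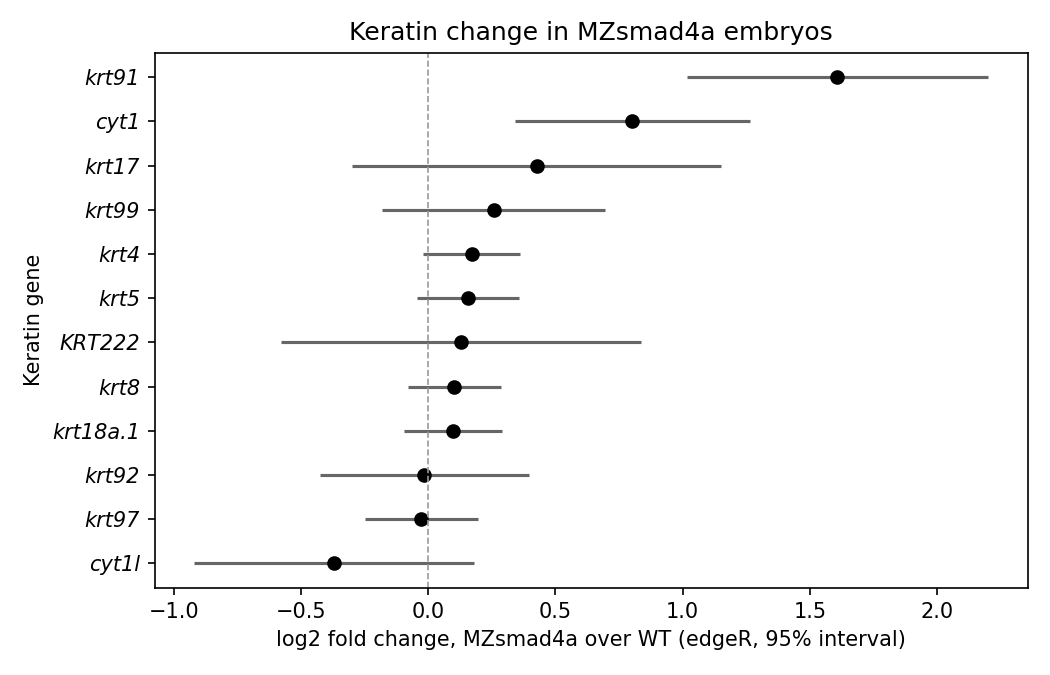
log2 fold change of the 12 tested keratins, MZsmad4a over WT, from edgeR with 95% intervals. The intervals of krt91 (1.02 to 2.20) and cyt1 (0.34 to 1.26) lie above 0, and those of the other 10 genes include 0.

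For the dominant keratins the interval of the difference was narrow. The fold of MZsmad4a over WT was 1.07 for krt8 (95% interval 0.95 to 1.22), 1.07 for krt18a.1 (0.94 to 1.22), 1.13 for krt4 (0.99 to 1.28), 1.11 for krt5 (0.97 to 1.28) and 0.98 for krt97 (0.84 to 1.14). Their adjusted p ran from 0.340 for krt4 to 0.921 for krt97 in edgeR's test. A change of these 5 genes by more than about 1.28-fold in either direction is outside these intervals. The less abundant genes were less precise: krt92 had a fold of 0.99 (0.74 to 1.32), krt99 1.20 (0.88 to 1.62), krt17 1.34 (0.81 to 2.22) and KRT222 1.09 (0.67 to 1.79), and their adjusted p ran from 0.554 to 0.980.

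cyt1, cyt1l and krt91 are neighbours. In the RefSeq annotation of the assembly GRCz12tu, 7 keratin genes follow each other on chromosome 19 with no other coding gene between them, in the order krt1-19d, krt1-19e, krt92, cyt1l, cyt1, krt17 and krt91. krt1-19d and krt1-19e were nearly silent, and the other 5 are compared here after their values were seen, so no test is given. Together these 5 had 1200 ± 247 TPM in WT and 1270 ± 345 TPM in MZsmad4a embryos (SD, n = 3 each), but their shares of this sum, which do not depend on the scaling of a library, differed. cyt1 held 20.7%, 24.5% and 19.9% in WT and 32.9%, 33.7% and 32.3% in MZsmad4a embryos. cyt1l held 23.1%, 18.7% and 20.2% in WT and 13.3% to 14.5% in MZsmad4a embryos. The genotypes did not overlap for either gene. krt92 held 46.3% to 52.4% in WT and 40.6% to 45.0% in MZsmad4a embryos, also without overlap, krt91 held 0.485% to 0.705% and 1.51% to 1.82%, and krt17 overlapped, at 5.71% to 9.27% and 7.54% to 9.58%.

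**Figure D4:**
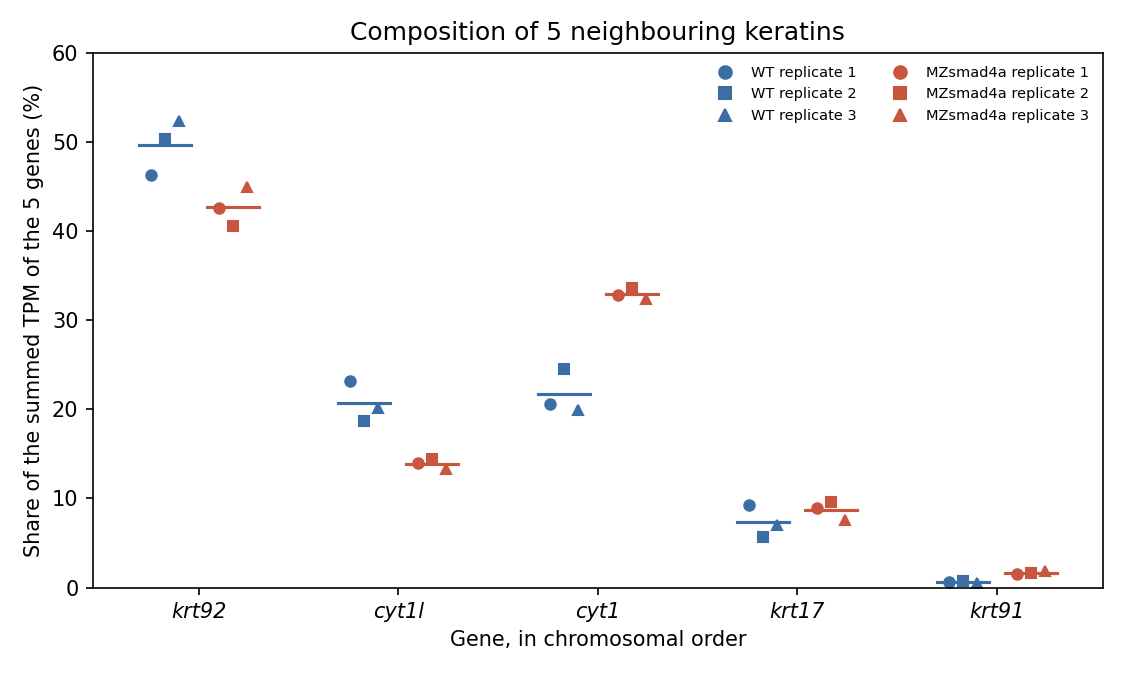
Share of each of 5 neighbouring keratins in their summed TPM, in percent, for each library (blue WT, red MZsmad4a, bars are means of 3). cyt1 lies at 19.9% to 24.5% in WT libraries and at 32.3% to 33.7% in MZsmad4a libraries, while cyt1l and krt92 hold smaller shares there. Shares have a fixed sum in each library, so a larger share of cyt1 lowers the others.

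The ratio of cyt1 to cyt1l did not overlap between genotypes. It was 0.893, 1.31 and 0.987 in WT and 2.35, 2.33 and 2.43 in MZsmad4a embryos. The mutant libraries differed from each other by less than the WT libraries did. Reads that fit several of these near copies are shared out by estimation: the expected counts of cyt1, cyt1l, krt92, krt17 and krt91 were fractional in 6 of 6 libraries. Fractional counts were not particular to this group of neighbours: those of krt97 were fractional in 6 libraries, of krt8 and krt5 in 5 and of krt4 in 2, and those of krt18a.1, krt99 and KRT222 were whole in all 6. When the counts of cyt1 and cyt1l were added up and fitted as 1 gene, edgeR put the log2 difference at 0.38 (adjusted p = 0.402), and for the sum of the 5 genes it was 0.22 (adjusted p = 0.624). The parts of the sharing of reads and of parental background in the differing shares were not tested.

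The other expressed keratins lie elsewhere. krt5, krt8 and krt18a.1 are consecutive coding genes on chromosome 23 and had log2 fold changes of 0.16, 0.10 and 0.10. krt99, on chromosome 11, was the only expressed member of a run of 5 consecutive keratins there, whose other members, krt93, krt94, krt98 and krt15, had 0 to 3 counts in any library. krt97 follows krt222 on chromosome 22, at 1033 and 2.04 TPM in the mean of all libraries.

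Genes that work with keratins were read beside them. Desmosomes anchor keratin filaments at cell contacts. Of 10 listed genes 8 were tested, 0 passed, and all 8 had a log2 fold change above 0 (49% of all genes tested), with a median of 0.32. These values are on the TMM scale. dsc2l, named after its values were seen, went from 0.08 to -0.034 when libraries were scaled by size only. Its means were 48.0 TPM in WT and 46.6 TPM in MZsmad4a embryos. The signs of the other tested genes of the list held at library size only. The genotypes did not overlap in CPM for 5 of the 8, against 23.6% of all genes tested. Not all of these 5 stayed apart in TPM. evpla, named after its values were seen, overlapped in TPM, as did the JUP gene and the first DSP gene given below. An unadjusted p under 0.05 in edgeR was also found for 5 of the 8, against 17.5% of all genes tested. A JUP gene, which encodes plakoglobin (ENSDARG00000070787), had 297.2, 296.9 and 294.0 TPM in WT and 313.8, 314.1 and 292.2 TPM in MZsmad4a embryos. ppl, which encodes periplakin, had 192.2 ± 27.8 TPM in WT and 206.0 ± 26.3 TPM in MZsmad4a embryos. A DSP gene, which encodes desmoplakin (ENSDARG00000022309), had 158.2, 134.2 and 147.7 TPM in WT and 160.9, 167.6 and 146.8 TPM in MZsmad4a embryos. The genotypes overlapped in TPM for these 3, and in CPM for ppl only. The smallest adjusted p of the list was that of a second DSP gene (ENSDARG00000076673), named here after its values were seen. It had 28.5, 19.3 and 26.7 TPM in WT and 35.6, 32.3 and 36.4 TPM in MZsmad4a embryos, without overlap. Its log2 fold change was 0.61 (edgeR, adjusted p = 0.0588). DESeq2 called it, as the only gene of the list, with an adjusted p of 0.00498, where 3.71% of genes were called (1.78% higher).

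Among transcription factors of the surface epithelium, the 3 most abundant overlapped between genotypes. klf17 had 192.0 ± 6.89 and 187.5 ± 12.5 TPM, cebpb 182.6 ± 22.6 and 179.0 ± 13.4 TPM, and grhl3 174.3 ± 15.1 and 168.9 ± 14.7 TPM in WT and MZsmad4a embryos (SD, n = 3 each). tp63, which marks basal epidermal progenitors and not the enveloping layer, is named after its values were seen. It had 3.90, 1.67 and 3.22 TPM in WT and 0.64, 0.07 and 0.37 TPM in MZsmad4a embryos, without overlap. Its level was low, at 46, 40 and 66 counts in WT and 13, 2 and 11 counts in MZsmad4a embryos. MZsmad4a replicate 2 was thus under the 3 counts used above as a floor. The log2 fold change of tp63 was -2.74 (adjusted p = 0.0516, edgeR). It was the 1 factor that DESeq2 called (adjusted p = 0.00042), where 3.71% of genes were called (1.94% lower). Of 11 listed factors 11 were tested and 0 passed in edgeR, with a median log2 fold change of 0.01. For 4 of the 11 the genotypes did not overlap in CPM, against 23.6% of all genes tested. An unadjusted p under 0.05 was found for 4, against 17.5% of all genes tested.

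Markers of cell types were measured as whole lists. For the enveloping layer apart from keratins, 7 of 8 listed genes were found and tested, 0 passed in edgeR, 0 had an unadjusted p under 0.05, DESeq2 called 0, the median log2 fold change was 0.08, and their summed level was 1423 to 1622 TPM in WT and 1335 to 1683 TPM in MZsmad4a embryos. No member of that list was at 0. cldne, a claudin of the enveloping layer, had 413.5 ± 21.2 TPM in WT and 404.6 ± 38.5 TPM in MZsmad4a embryos. Members of that list went both ways, with edgeR log2 fold changes from -0.46 to 0.22, of which 4 were above 0. The lowest value was that of cldnf (adjusted p = 0.297, edgeR), whose genotypes overlapped in CPM but not in TPM. epcam had -0.19 and mid1ip1a 0.20. These 3 genes are named after their values were seen. On the ventral side 3 of 8 tested genes passed, all lower, where 0.49% of all genes tested were called lower: ved (log2 fold change -2.03, adjusted p = 0.00475), foxi1 (-1.92, adjusted p = 0.00523) and gata2a (-1.18, adjusted p = 0.00809), all in edgeR. For 6 of the 8 the genotypes did not overlap in CPM (23.6% of all genes tested), and 6 had an unadjusted p under 0.05 (17.5%). DESeq2 called 4 of the 8, where 3.71% of genes were called: the 3 above and bambia. bambia, named after its values were seen, had 316.8 ± 20.3 TPM in WT and 89.2 ± 39.9 TPM in MZsmad4a embryos. It differed by -1.72 (adjusted p = 0.0255 in edgeR and 5.2e-07 in DESeq2). The summed level of the ventral list was 1299 to 1427 TPM in WT and 520 to 682 TPM in MZsmad4a embryos. The yolk syncytial layer list, next to which the enveloping layer lies, had 0 of 6 past the threshold in edgeR. It summed to 572 to 686 TPM in WT and 435 to 670 TPM in MZsmad4a embryos. In this list 2 genes had an unadjusted p under 0.05, against 17.5% of all genes tested. These 2, named after their values were seen, did not overlap between genotypes in CPM, as 23.6% of all genes tested did not. mxtx2, a homeobox gene of the yolk syncytial layer, differed by -2.88 on the log2 scale (adjusted p = 0.0286 in edgeR and 0.00042 in DESeq2). Its level was low, at 15, 66 and 42 counts in WT and 2, 6 and 9 counts in MZsmad4a embryos. MZsmad4a replicate 1 was thus under the 3 counts used above as a floor. sox32, also an endoderm gene, differed by -0.44 (adjusted p = 0.108, edgeR). The dorsal organizer list had 0 of 3 in edgeR and in DESeq2, and 1 at an unadjusted p under 0.05 (17.5% of all genes tested). It summed to 291 to 320 TPM in WT and 188 to 259 TPM in MZsmad4a embryos. Of the other intermediate filament genes 6 of 10 listed names were matched to an identifier and 5 were tested, namely prph and nuclear lamins. Of these 0 passed in edgeR or DESeq2, 0 had an unadjusted p under 0.05, and the median log2 fold change was -0.0039. lmnb1, a nuclear lamin, had 306.9 ± 22.9 and 280.8 ± 23.3 TPM. The part of these cell types in the keratin values was not tested.

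**Figure D5:**
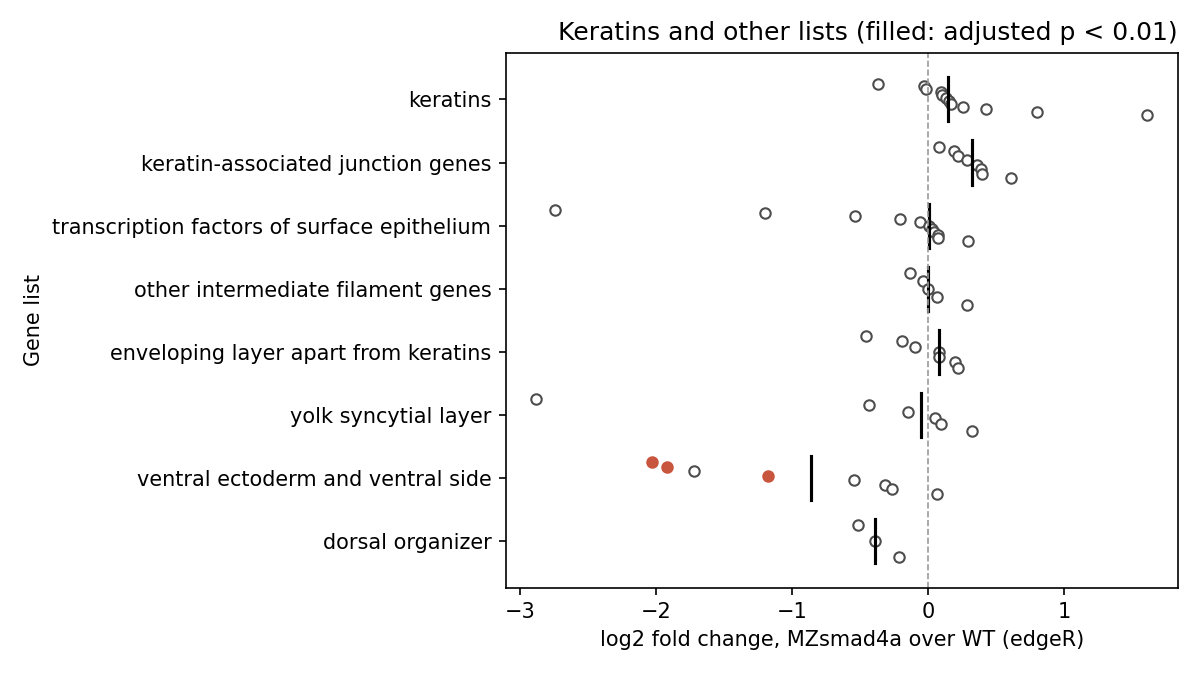
log2 fold change, MZsmad4a over WT, of each tested gene (circles) and the median (bars) for the keratins and 7 other lists. Filled circles passed an adjusted p of 0.01, which holds for 3 ventral genes and for none of the 12 keratins. The keratin median is 0.14 and the ventral median -0.86.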

How the data were processed

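Keratin transcripts were read from 6 bulk RNA-seq libraries, 3 of WT and 3 of MZsmad4a embryos, grouped by the sample labels. Per the paper's methods, the authors removed adapters with cutadapt and used STAR and RSEM on GRCz11 with Ensembl release 95. Per the labels, bcl2fastq 2.20.0 was used. The authors deposited expected counts, which are not normalized, and TPM, which RSEM scales by effective length and to a fixed sum per library. Between 91.0% and 92.6% of expected counts were whole (within 0.005). The deposited FPKM was not used.

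After rounding to integers, counts entered edgeR 4.0.16 (R 4.3.3) with filterByExpr, TMM scaling, glmQLFit and glmQLFTest, with genotype as single factor. Benjamini-Hochberg adjustment covered 15720 genes, at a threshold of 0.01. Standard errors were derived from the log2 fold change and F, and 95% intervals use the test's degrees of freedom. DESeq2 1.42.0 and limma 3.58.1 served as alternatives, and Python 3.11.15 for summaries. Per the paper's methods, the authors themselves tested with DESeq2, at a false discovery rate of at most 0.01.

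Symbols came from a table of Ensembl identifiers, which names 26433 of the 32266 genes, and chromosomes and neighbours from RefSeq (GRCz12tu), where all 22 keratins were found by symbol. Some listed genes were matched through the identifiers and symbols of the study's own table, and 6 listed names that matched no single identifier were left out. Values in every library are given for keratins with a mean of at least 10 TPM, and names for the other lists follow a rule of the threshold and the highest TPM. For the ventral, yolk, organizer and lamin lists fewer genes are named than the rule allows. Members and lists were chosen with earlier results of these data known. p-values measure the spread between pools of embryos. Alternatives were another test, the replicate block, RLE or no scaling, other filters, truncated counts, TPM with pseudocounts of 1 and 0.1, other thresholds, CPM in place of TPM and leaving out each library.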

Additional observations from a re-analysis of the deposited data

How the results depend on the processing

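No keratin was called lower under any alternative run, and the number called higher stayed at 0 except for 1 without a filter on low counts (krt91, log2 fold change 1.62, adjusted p = 0.00372 from edgeR), 1 at an adjusted p under 0.05 (krt91, 1.61) and 2 with DESeq2 (krt91, 1.62, and cyt1, 0.81). All genes called lower and higher, 77 and 35 in the fit reported, were 22 and 7 with the replicate block, 167 and 116 without a filter, 43 and 21 with at least 10 counts in every library, 343 and 315 with DESeq2, and 263 and 198 at an adjusted p under 0.05. Leaving out each library in turn gave 16 to 47 lower and 8 to 29 higher, and 0 keratins. The numbers at an adjusted p under 0.05 come from the fit reported, read at a looser threshold, so they cannot be smaller. The cause of the other differing numbers was not tested. Signs turned for values near 0: krt8 and krt18a.1 at library size only (-0.0070 and -0.011) and with limma on TPM, pseudocount 1 or 0.1 (-0.0046 for krt8 and -0.024 for krt18a.1 in both), KRT222 with limma (-0.027 and -0.041) and krt92 without a filter (0.00043). Without single libraries the ranges were -0.086 to 0.059 for krt97, -0.26 to 0.10 for krt92 and -0.070 to 0.33 for KRT222. With near copies summed, a choice made after seeing the data, the value was 0.22 for the sum that holds krt92 and cyt1l and 0.38 for cyt1 and cyt1l. In CPM in place of TPM, which is not corrected for length, the share of keratin in WT moved from 23.9% to 27.7% for krt8, 23.0% to 18.11% for krt18a.1, 18.5% to 24.3% for krt4, 10.6% to 11.9% for krt5 and 10.7% to 8.08% for krt97, so krt4 then ranks above krt18a.1. The ratio of summed keratin levels ran from 0.960 to 1.07 when each library was left out.

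Replicate numbers are shared between the genotypes. Deviations from the genotype mean correlated at 0.11, -0.03 and 0.14 for numbers 1, 2 and 3, and at -0.20 to 0.08 between unlike numbers. The values for numbers 1 and 3 were above all those between unlike numbers, but low, so they do not settle whether the numbers pair the libraries. The fit reported used genotype only. With the replicate block the adjusted p was 0.0251 for krt91 and 0.0371 for cyt1, and 0 keratins passed 0.01. Depth limits the 10 keratins that were not tested, which had at most 13 counts in a library.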
